A study of Mus musculus with 12 samples.

Results

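The Bcl2 family and its partner Apaf1 were followed in mouse liver through 10 genes: 7 that promote cell death (Bcl2l11, Pmaip1, Bid, Bbc3, Bak1, Bax and Apaf1) and 3 that oppose it (Mcl1, Bcl2l1 and Bcl2). The members were all probe sets whose annotation gave only 1 of these symbols. They were 24 of 22626 probe sets on the Affymetrix 430A array and 29 of 45037 on the 430 2.0 array, and they covered 9 of the 10 genes on each, out of 12393 and 18193 genes with a named probe set. No probe set of either annotation used was paired with Bax alone, so Bax was not analysed here. On 430A, Mcl1 had 6 probe sets, Bcl2l11 had 5, Bcl2l1 had 4, Bid, Bak1 and Apaf1 had 2 each, and Pmaip1, Bbc3 and Bcl2 had 1 each.

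Proteins of this family decide whether the outer membrane of mitochondria stays intact. BH3-only proteins (Bim from Bcl2l11, Noxa from Pmaip1, Puma from Bbc3, and Bid) are the sensors of stress, the pore formers Bax and Bak open the membrane, and Bcl2, Bcl-xL (from Bcl2l1) and Mcl1 hold both kinds in check. Once cytochrome c is released, Apaf1 assembles into the apoptosome and activates caspase 9. In mouse liver, hepatocytes are known to depend on Mcl1 and Bcl-xL for survival, and death receptor signals in them pass through the cleavage of Bid.

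Mice carried a knockout of Fah, the last enzyme of tyrosine breakdown, alone or together with a knockout of p21 (Cdkn1a), an inhibitor of the cell cycle and a p53 target. The drug NTBC acts upstream of Fah in that pathway and so spares Fah knockout mice its toxic late products. On 430A the Fah p21 off group held 2 livers of double knockout mice and the Fah off group 3 livers of Fah knockout mice, both 14 days after NTBC was stopped. The normal group held 4 livers of 1 mouse each: normal 1 from a wildtype mouse on water, normal 2 from a wildtype mouse on NTBC, normal 3 from a Fah knockout on NTBC and normal 4 from a double knockout on NTBC. The 430 2.0 array held 2 more Fah p21 off livers (replicates 3 and 4) and 1 normal liver, a double knockout on NTBC that carries the number of normal 4. Mice were 10 weeks of age and RNA came from 10 mg of whole liver, so a change in the mixture of cells and a change in the RNA of a cell cannot be told apart. The labels used here state neither strain nor sex.

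Values are linear signal intensities, which the deposited tables had already brought to a common mean: the mean of each array between its 2nd and 98th percentile was 347.5 to 348.8. Medians still differed on 430A. They were 146.2 and 145.1 in Fah p21 off livers and 134.2, 133.7 and 120.6 in Fah off livers. In normal livers 1 to 4 they were 110.6, 115, 127.3 and 141.6. Fah signal was 114.2 and 105.3 in Fah p21 off livers, 113.5, 100.8 and 107.5 in Fah off livers, and 6868.1, 7120.1, 181.9 and 233 in normal livers 1 to 4. The Cdkn1a probe set 1421679_a_at read 9.5 and 8.2 in Fah p21 off livers, against 989.5, 1861.5 and 1195.5 in Fah off livers and 14.7 to 51.4 in normal livers. Fah and this Cdkn1a probe set followed the labels. A second Cdkn1a probe set, 1424638_at, read 1827.6 and 2059.6 in Fah p21 off livers and 2814 to 3935.7 in Fah off livers, against 75.2 to 257.7 in normal livers, and the labels do not say whether it lies outside the deleted part. Changes below are log2 fold changes ± SE of log2(signal + 9.9) on 430A and of log2(signal + 3.8) on 430 2.0, so changes of dim probe sets are understated. A probe set was called at a limma adjusted p under 0.05, and each gene was represented by its probe set of highest mean.

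The promoters of the members are shown because several pro-death genes rose together while Bbc3 did not pass. The search covered 13 promoters of 8 of the members from RefSeq on GRCm38.p6, read as the 250 bases before the start of transcription. Pmaip1 and Bax were left out of the search. The Bcl2l11 promoter shown lies at chr2:128125788-128126037 on the plus strand, and capitals mark the core of the FOXO motif, GTAAACA. Another Bcl2l11 promoter, at chr2:128127325-128127574, held none of the motifs searched. The promoter of Apaf1 lies at chr10:91082744-91082993 on the minus strand and held none of the motifs searched.
Bcl2l11: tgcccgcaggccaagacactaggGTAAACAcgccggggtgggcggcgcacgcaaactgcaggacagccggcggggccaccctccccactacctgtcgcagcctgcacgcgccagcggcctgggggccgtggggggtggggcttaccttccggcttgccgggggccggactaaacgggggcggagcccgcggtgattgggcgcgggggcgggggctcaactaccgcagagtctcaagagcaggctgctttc
Apaf1: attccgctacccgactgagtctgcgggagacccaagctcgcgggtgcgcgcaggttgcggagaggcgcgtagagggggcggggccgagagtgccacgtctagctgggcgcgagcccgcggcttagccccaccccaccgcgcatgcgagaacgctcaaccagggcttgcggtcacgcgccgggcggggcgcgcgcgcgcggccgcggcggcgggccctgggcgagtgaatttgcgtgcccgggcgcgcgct

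Bases 227 to 221 before the Bcl2l11 start shown above and bases 167 to 161 before 1 of the 3 starts of Bbc3 held the FOXO core, on opposite strands. The other Bcl2l11 start lacked it. The windows below run over chr2:128125801-128125827 and chr7:16310084-16310110, both read on the plus strand, with the core in capitals.
Bcl2l11 window: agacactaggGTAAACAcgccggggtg
Bbc3 window: ctggcgggttTGTTTACaaacaatggg
Of 32851 mouse promoters of the same length, 3.17% held GTAAACA on either strand. Among the other motifs searched on both strands, Bcl2l1 alone had matches, 1 to the antioxidant response element TGACNNNGC (10.2% of all promoters) and 1, before another start, to the E2F motif TTTCGCGC or TTTGGCGC (0.654%). AP-1 (TGANTCA, 6.75% of all promoters), the C/EBP-ATF composite (TGATGNAAT, 0.816%) and the single-copy decamer of the p53 response element (7.13%) matched in none of the 13. The 13 did not include Pmaip1. A match is a stretch of letters only: of the 2 genes with the FOXO core, Bcl2l11 rose and Bbc3 did not pass, and Apaf1 rose without any of these motifs.

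After NTBC was stopped most pro-death members were higher than in normal livers, and the brightest probe sets of the 3 pro-survival members did not pass. In Fah p21 off livers 5 of 9 genes rose against normal (Bcl2l11, Pmaip1, Bid, Bak1 and Apaf1) and none fell, where 29.4% of 9195 genes were called in either direction, 17.8% higher and 11.5% lower. In Fah off livers 4 of 9 rose (Bcl2l11, Pmaip1, Bid and Apaf1) and none fell, where 36.2% of all genes were called, 19.7% higher and 16.5% lower. The median change of the members was 0.81 in Fah p21 off livers and 0.55 in Fah off livers, beside medians of 0.09 and 0.00 over all genes tested. All calls were of pro-death genes, 5 of 6 in Fah p21 off livers and 4 of 6 in Fah off livers. Both comparisons share the same normal livers. Pmaip1 was bright enough to be tested only through the Fah p21 off livers; leaving it out, a count made after its values were seen, 4 of 8 genes rose in Fah p21 off livers and 3 of 8 in Fah off livers, with median changes of 0.67 in Fah p21 off livers and 0.49 in Fah off livers. Where each gene was instead read as the mean of its probe sets, Bcl2l1 also rose in both (0.82 in Fah p21 off and 0.75 in Fah off livers, adjusted p = 0.00444 and 0.00271) and Mcl1 rose in Fah off livers (0.48, adjusted p = 0.00876), while Bak1 in Fah p21 off livers and Pmaip1 in Fah off livers no longer passed.

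The counts depended on single livers. The share of all genes called after leaving out a liver was not counted, so a loss of calls common to all genes is not set apart from 1 of the members. For Fah p21 off against normal, only Bid was called without Fah p21 off 1, and Bcl2l11 and Bid without Fah p21 off 2. Either step leaves 1 Fah p21 off liver, assumed to vary like the other groups, and Pmaip1 was then not tested. For Fah off against normal, only Bcl2l11 and Bid were called without normal 1, without normal 2, without Fah off 2, or without either Fah p21 off liver, whose spread and signals enter the same fit and filter.

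**Figure D1:**
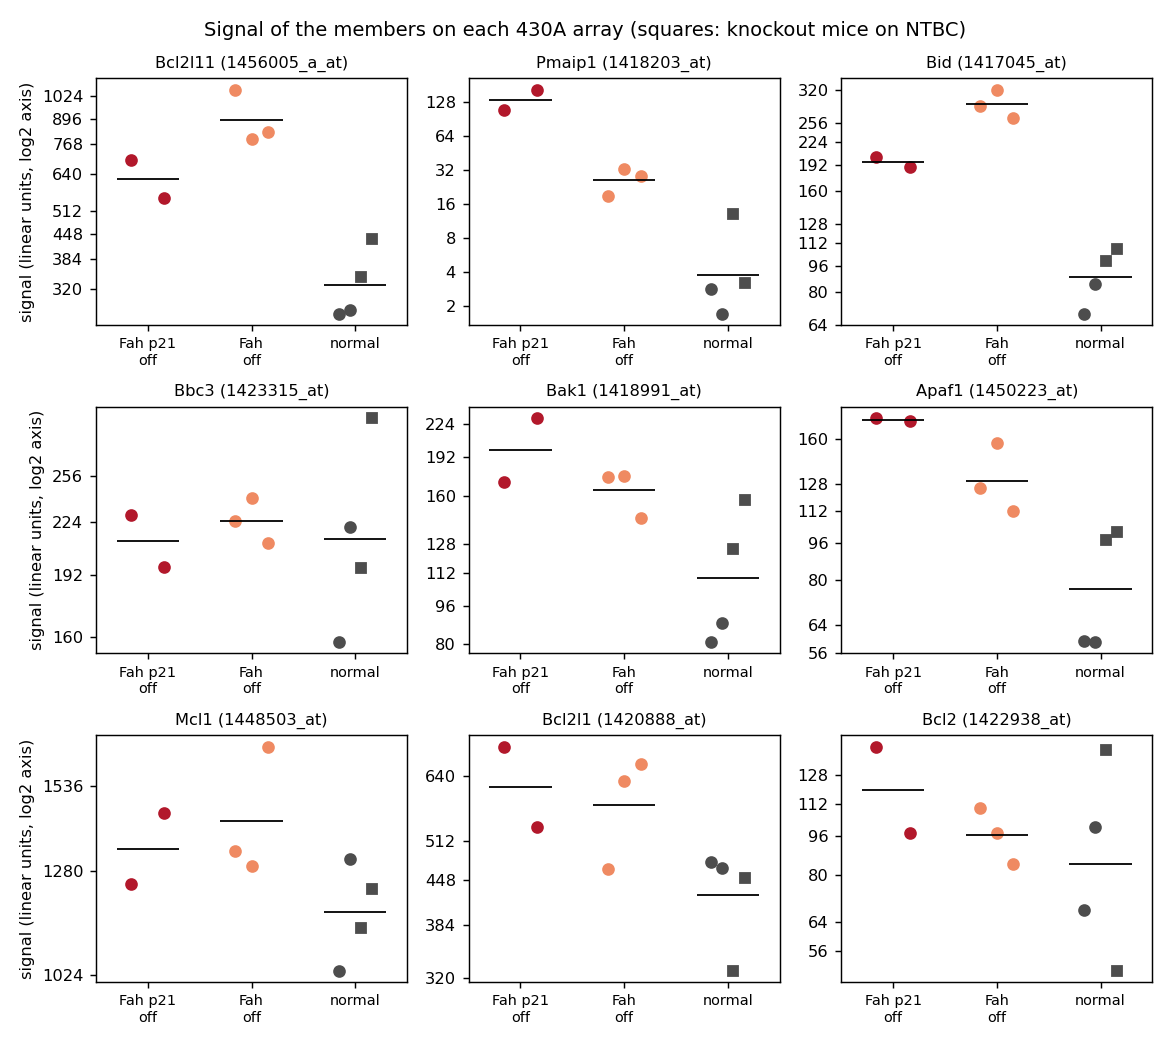
Signal on a log2 axis of the representative probe set of each member on every 430A array, with Fah p21 off livers at the left, Fah off livers in the middle and normal livers at the right. Points are livers, squares are the knockout mice on NTBC (normal 3 and 4) and bars are geometric means; Bcl2l11, Bid, Pmaip1 and Apaf1 of all off livers lie above all normal livers, and Bbc3 overlaps.

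Bcl2l11 encodes Bim, a BH3-only protein that binds every pro-survival member and that FOXO3 and CHOP are known to induce. Its signal on 1456005_a_at was 699.9 and 554.2 in Fah p21 off livers and 1066.3, 793.4 and 824.1 in Fah off livers, against 276.6, 283, 345.6 and 434.8 in normal livers 1 to 4. The groups did not overlap: every off liver lay above every normal liver, and both Fah p21 off livers lay below all Fah off livers. Such a gap above normal was found for 6 of 9 members in Fah p21 off livers and 4 of 9 in Fah off livers, beside 28.2% and 22.9% of all genes. Both counts include Pmaip1, which was tested only through the Fah p21 off livers in which it is high, so its gap counts as no support. Bcl2l11 rose by 0.90 ± 0.21 in Fah p21 off livers (1.86-fold, adjusted p = 0.00879) and by 1.402 ± 0.187 in Fah off livers (2.64-fold, adjusted p = 0.000181). All 5 probe sets rose in both comparisons, with changes of 0.90 to 2.01 in Fah p21 off livers and 1.402 to 2.397 in Fah off livers. The one with the largest change, 1426334_a_at, read 257.2 and 192.8 in Fah p21 off livers and 309.9, 277.8 and 294.8 in Fah off livers, against 23.8, 59.1, 38.7 and 87.9 in normal livers 1 to 4. It and 1456006_at reached the filter on dim signals in off livers only.

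Pmaip1 encodes Noxa, a BH3-only protein that mainly engages Mcl1 and whose gene is a p53 target. The 1 probe set, 1418203_at, read 109.6 and 166.5 in Fah p21 off livers, 19, 33 and 28.7 in Fah off livers, and 2.8, 1.7, 13 and 3.2 in normal livers 1 to 4. The 3 groups formed 3 separate ranges, the Fah p21 off livers on top. It reached the filter only through the 2 Fah p21 off livers, so it had to differ there to be tested. Pmaip1 rose by 3.32 ± 0.54 in Fah p21 off livers (adjusted p = 0.000974), and it was also called with no filter on dim signals (adjusted p = 0.000102). The size of this change depends on the offset of 9.9 added before log2, since the normal signals lie near or below that offset and far below the filter levels of 73.8 to 96.3 on those arrays. It was 5.17 with no offset and 1.97 with the 25th percentile as offset, so no fold is given. In Fah off livers, whose signals also lay below the filter, the change was 1.32 ± 0.47 at an adjusted p of 0.0496, a call that did not last under 14 of the 17 alternative settings in which it was tested.

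Bid links death receptors to mitochondria, since caspase 8 cuts it into its active form. Its probe set 1417045_at read 201.6 and 189.3 in Fah p21 off livers and 287.5, 320.9 and 264.7 in Fah off livers, against 69.1, 84.5, 99.4 and 107.6 in normal livers 1 to 4. As with Bcl2l11, all off livers were above all normal livers and the Fah p21 off livers were below the Fah off livers. Bid rose by 1.05 ± 0.20 in Fah p21 off livers (2.08-fold, adjusted p = 0.00244) and by 1.60 ± 0.17 in Fah off livers (3.03-fold, adjusted p = 4.41e-05). The second probe set, 1448560_at, was too dim to be tested, at 28.6 and 11.6 in Fah p21 off livers, 29.6, 61.8 and 61.4 in Fah off livers, and 6.3 to 10.4 in normal livers. Its order of groups was that of the first.

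Bbc3 encodes Puma, the other BH3-only product among the classic p53 targets. Its probe set 1423315_at read 228.6 and 196.2 in Fah p21 off livers, 224.4, 240.2 and 210.6 in Fah off livers, and 157.5, 220.9, 195.6 and 303.7 in normal livers 1 to 4. The lowest and the highest value both came from normal livers. Its change was -0.01 ± 0.23 in Fah p21 off livers (95% interval -0.51 to 0.49, adjusted p = 0.978) and 0.07 ± 0.20 in Fah off livers (-0.37 to 0.51, adjusted p = 0.813). A change as large as those of Bid lay outside both intervals.

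Bak1 encodes the pore former Bak. Its probe set 1418991_at read 171.3 and 230.8 in Fah p21 off livers and 175.4, 176.3 and 144.7 in Fah off livers, against 80.9, 88.6, 125 and 157.4 in normal livers 1 to 4. Normal 4 overlapped the Fah off livers and lay just below the lower Fah p21 off liver. Bak1 rose by 0.81 ± 0.26 in Fah p21 off livers (adjusted p = 0.0385), and its change of 0.55 ± 0.23 in Fah off livers did not pass (adjusted p = 0.0853). The call was lost under 11 of 19 alternative settings. The other probe set, 1425716_s_at, passed in neither comparison, with 153.6 and 144.9 in Fah p21 off livers, 118.1, 118.4 and 5.5 in Fah off livers, and 9.9 to 83.7 in normal livers.

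Apaf1, the platform of the apoptosome and a p53 target, had 2 probe sets that gave the same order. Probe set 1450223_at read 177 and 174.4 in Fah p21 off livers and 125.7, 156.6 and 112.3 in Fah off livers, against 59.2, 59, 97.3 and 101.1 in normal livers 1 to 4. Probe set 1452870_at read 144.2 and 145.9 in Fah p21 off livers and 117.1, 130.4 and 121 in Fah off livers, against 84.8, 59.7, 77 and 81.2 in normal livers. On both, the Fah p21 off livers were highest and the normal livers lowest, without overlap. Apaf1 rose by 1.10 ± 0.26 in Fah p21 off livers (2.14-fold, adjusted p = 0.00927) and by 0.69 ± 0.23 in Fah off livers (1.62-fold, adjusted p = 0.0367), and the second probe set rose by 0.87 in Fah p21 off livers and by 0.64 in Fah off livers. The Fah off call of the first probe set was lost under 8 of 19 alternative settings.

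**Figure D2:**
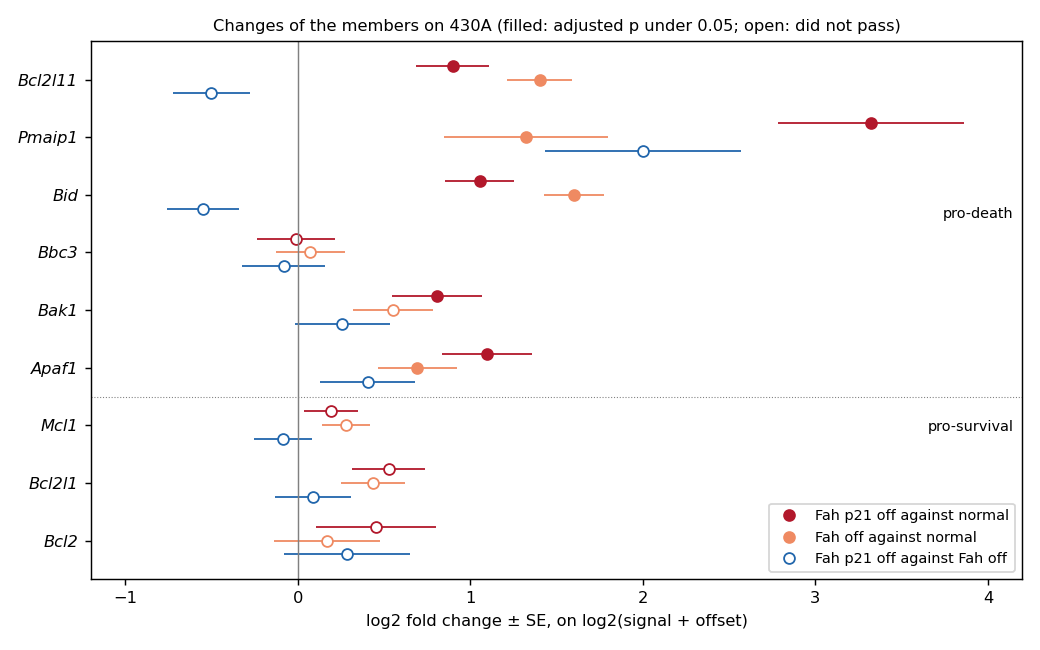
Log2 fold change ± SE (x axis) of each member on 430A for Fah p21 off against normal, Fah off against normal and Fah p21 off against Fah off, with pro-death genes above the dotted line and pro-survival genes below it. Filled points passed at an adjusted p under 0.05; all filled points are pro-death genes to the right of 0, and Pmaip1 in Fah p21 off livers lies farthest at 3.32.

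Among the pro-survival genes, Mcl1, a short-lived protein that hepatocytes need, gave different answers by probe set. The brightest, 1448503_at, read 1243.5 and 1449.1 in Fah p21 off livers, 1337.1, 1294.4 and 1670.7 in Fah off livers, and 1034.2, 1313.8, 1132.5 and 1231.3 in normal livers 1 to 4. These ranges overlapped, and its changes of 0.19 ± 0.16 in Fah p21 off livers and 0.28 ± 0.14 in Fah off livers did not pass. Probe set 1437527_x_at read 849.7 and 1046.4 in Fah p21 off livers and 1088.3, 964.5 and 1194.2 in Fah off livers, against 398, 415, 462 and 499 in normal livers 1 to 4. It rose by 1.08 ± 0.16 in Fah p21 off livers (adjusted p = 0.00058) and by 1.27 ± 0.14 in Fah off livers (adjusted p = 5.4e-05), with no overlap. Probe sets 1416881_at and 1456243_x_at also rose, by 0.70 and 0.59 in Fah p21 off livers and by 0.83 and 0.72 in Fah off livers. Probe sets 1416880_at and 1456381_x_at did not pass, with changes of -0.18 and -0.21 in Fah p21 off livers and of -0.18 and -0.06 in Fah off livers. The suffix x marks probe sets whose probes may also bind other transcripts, but 1416881_at carries no such mark. The annotation used here does not say which transcript of Mcl1 each of them reads.

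Bcl2l1, the gene of Bcl-xL, showed the same kind of split. Its brightest probe set, 1420888_at, read 709.2 and 538.6 in Fah p21 off livers, 466.2, 630.8 and 666.8 in Fah off livers, and 476.6, 467.7, 328.4 and 450.7 in normal livers 1 to 4. Only the Fah p21 off livers lay wholly above the normal ones, and the changes of 0.53 ± 0.21 in Fah p21 off livers (adjusted p = 0.0857) and 0.44 ± 0.19 in Fah off livers (adjusted p = 0.0892) did not pass. Probe set 1420887_a_at rose by 0.82 ± 0.23 in Fah p21 off livers (adjusted p = 0.0206), and its change in Fah off livers was 0.41 ± 0.20 (adjusted p = 0.138). Probe set 1426191_a_at rose by 1.59 ± 0.40 in Fah p21 off livers and by 1.71 ± 0.36 in Fah off livers. It read 95.9 and 94.6 in Fah p21 off livers and 144.3, 108.8 and 72.1 in Fah off livers, against 32.8, 44.7, 14.9 and 15.9 in normal livers, and reached the filter only through Fah off 1 and 2. The last one, 1426050_at, was not tested, at 47.1 to 63.4 in Fah p21 off livers, 55.9 to 63 in Fah off livers and 37.3 to 52.2 in normal livers.

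Bcl2 itself, the founding member and scarce in normal hepatocytes, read 146.5 and 97.6 in Fah p21 off livers, 109.8, 97.4 and 84.2 in Fah off livers, and 67.8, 100.4, 144.1 and 51 in normal livers 1 to 4 on 1422938_at. The normal livers spanned nearly the whole range. Its changes of 0.45 ± 0.35 in Fah p21 off livers and 0.17 ± 0.31 in Fah off livers did not pass, and 95% intervals of -0.31 to 1.22 for Fah p21 off and -0.50 to 0.84 for Fah off leave room for changes of the size seen in Apaf1.

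**Figure D3:**
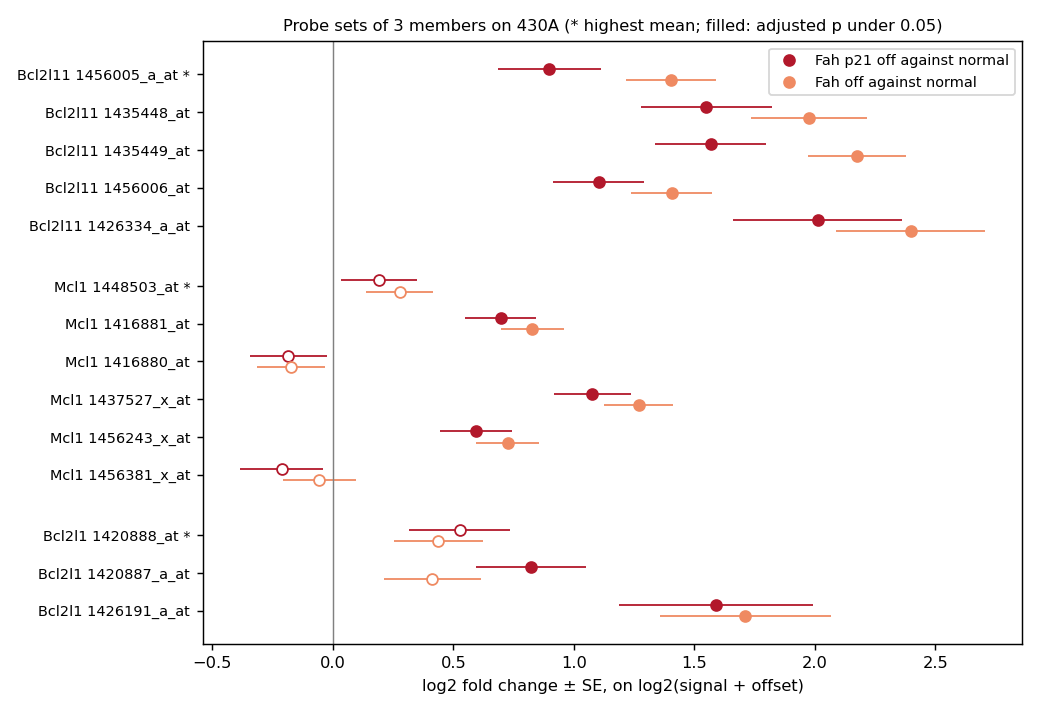
Log2 fold change ± SE (x axis) of every tested 430A probe set of Bcl2l11, Mcl1 and Bcl2l1, for Fah p21 off against normal and Fah off against normal; an asterisk marks the probe set of highest mean and filled points passed at an adjusted p under 0.05. All 5 Bcl2l11 probe sets are filled in both comparisons, while 3 of 6 Mcl1 probe sets are, with changes of 0.59 to 1.27.

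Counted by probe set, 15 of 24 rose in Fah p21 off livers, 7 did not pass and 2 were too dim to be tested, where 28.4% of 15307 probe sets were called in either direction and 17.7% rose. In Fah off livers 13 of 24 rose and 9 did not pass, where 35.5% of all probe sets were called and 20.1% rose. By side, 10 of 13 pro-death and 5 of 11 pro-survival probe sets rose in Fah p21 off livers, and 9 of 13 and 4 of 11 in Fah off livers. None fell. Among those counted as rising in both, 1418203_at of Pmaip1, 1456006_at and 1426334_a_at of Bcl2l11 and 1426191_a_at of Bcl2l1 reached the filter in off livers only. They were thus tested only because they are high there.

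The balance of both sides was described for each liver as the mean log2 difference from the normal mean over the 6 pro-death genes minus that over the 3 pro-survival genes, with no test. It was 0.66 and 0.95 in Fah p21 off livers, 0.72, 0.76 and 0.46 in Fah off livers, and -0.21, -0.36, 0.11 and 0.47 in normal livers 1 to 4. The double knockout on NTBC, normal 4, thus lay just above Fah off 3, and, with Pmaip1 counted, all other off livers lay above all normal livers. Group means were 0.80 ± 0.21 in Fah p21 off livers (SD, n = 2), 0.65 ± 0.16 in Fah off livers (SD, n = 3) and 0 ± 0.37 in normal livers (SD, n = 4). The pro-death side averaged 1.20 ± 0.04 above normal in Fah p21 off livers and 0.94 ± 0.11 in Fah off livers. The pro-survival side, which is subtracted and so lowers the balance, averaged 0.39 ± 0.17 in Fah p21 off livers and 0.30 ± 0.08 in Fah off livers. Without Pmaip1, which was tested only through the Fah p21 off livers, the Fah p21 off balance was 0.38 and the Fah off balance 0.57. The order of both groups thus rested on that gene, as did the place of the Fah p21 off livers above normal 4.

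**Figure D4:**
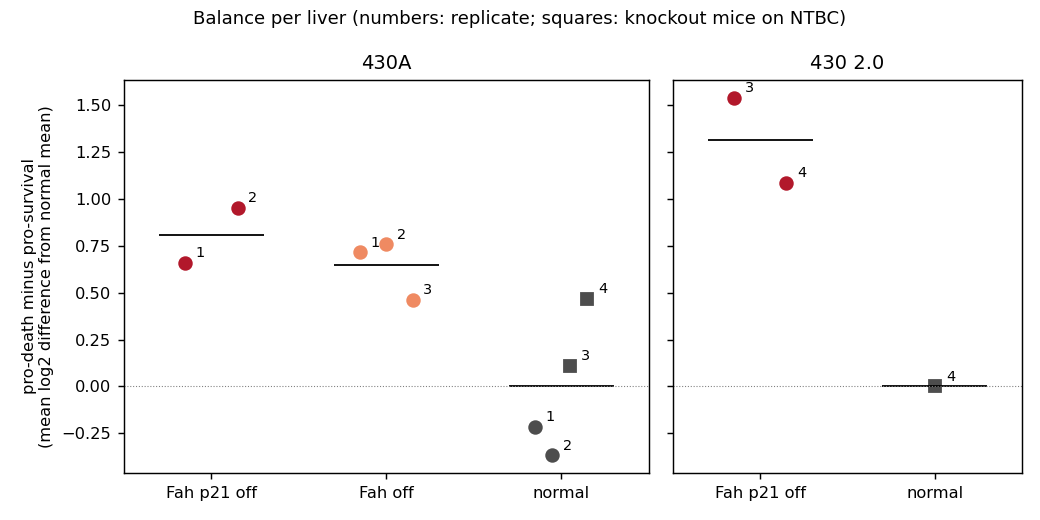
Balance (y axis, mean log2 difference from the normal mean over pro-death genes minus that over pro-survival genes) of each liver, numbered by replicate, on 430A (left) and 430 2.0 (right), with bars at group means and squares for knockout mice on NTBC. Fah p21 off livers lie at 0.66 and 0.95 on 430A, Fah off livers at 0.46 to 0.76 and normal livers at -0.36 to 0.47; the single normal liver on 430 2.0 is 0 by construction.

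Whether loss of p21 alters the response is asked by setting Fah p21 off against Fah off livers. No member passed (0 of 9 by limma), where 0.0435% of 9195 genes were called. At an unadjusted p under 0.05 there were 3 members, Bcl2l11, Pmaip1 and Bid, where 8.62% of all genes reached this. Pmaip1 was tested only through the Fah p21 off livers in which it is high, so neither its place here nor its order below counts as support. Bid differed by -0.55 ± 0.21 (adjusted p = 0.519) and Bcl2l11 by -0.50 ± 0.22 (adjusted p = 0.598), while Pmaip1 differed by 2.00 ± 0.57 (adjusted p = 0.336). Both probe sets of Bid and all 5 of Bcl2l11 put both Fah p21 off livers below all Fah off livers, where 10.9% of all probe sets did so. Pmaip1, both probe sets of Apaf1 and the Bak1 probe set 1425716_s_at put them above, as did 17.1% of all probe sets. The design had 2 livers against 3, and on simulated data the same fit recovered 52% of 2-fold and 89% of 4-fold changes in this comparison. That recovery depends on the share of probe sets changed in the simulation, so it may differ in the livers.

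Within the normal group the knockout mice on NTBC were set against the wildtype mice. This contrast of 2 against 2 livers was chosen after its values were seen. No member passed, where 0.174% of all genes were called. The median change of members was 0.39, beside 0.13 over all genes. On their representatives 5 of 9 members (Bcl2l11, Pmaip1, Bid, Bak1 and Apaf1) were higher in both knockout livers than in both wildtype livers, as were 38.2% of all genes. Bcl2l1 was lower in both, as were 18.8% of all genes, and the other 3 overlapped. The changes were 0.46 ± 0.20 for Bcl2l11, 0.39 ± 0.19 for Bid, 0.67 ± 0.22 for Bak1 and 0.66 ± 0.22 for Apaf1 (adjusted p = 0.251, 0.287, 0.167 and 0.173), and 0.51 ± 0.61 for Pmaip1 (adjusted p = 0.669), whose 4 signals were all below the filter. The pro-survival genes had a median of 0.02.

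With the knockout mouse of the same genotype on NTBC as the only control, fewer members passed, and each control was then 1 liver assumed to vary like the others. In Fah p21 off livers only Pmaip1 rose, by 3.47 ± 0.70 (adjusted p = 0.0125), where 15.7% of all genes were called. Among the pro-death genes that did not pass, Bid was higher by 0.80 ± 0.23, Apaf1 by 0.74 ± 0.27, Bcl2l11 by 0.51 ± 0.24 and Bak1 by 0.32 ± 0.26. Bbc3 was lower, at -0.50 ± 0.25. The pro-survival genes did not pass and were higher as well, Bcl2 by 1.09 ± 0.35, Bcl2l1 by 0.45 ± 0.26 and Mcl1 by 0.12 ± 0.23. In Fah off livers Bcl2l11 rose by 1.33 ± 0.23 (adjusted p = 0.00421), Bid by 1.46 ± 0.22 (adjusted p = 0.00254) and Bcl2l1 by 0.80 ± 0.25 (adjusted p = 0.0485), where 21.9% of all genes were called. The Bcl2l1 value rests on normal 3, which read 328.4 on 1420888_at, while the other normal livers read 450.7 to 476.6. Against all 4 normal livers the change of Bcl2l1 was 0.44 and did not pass. Apaf1 changed least among the earlier calls, at 0.39 ± 0.26, and did not pass.

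The 430 2.0 array measured 2 further Fah p21 off livers against the liver numbered normal 4. With 1 normal liver the spread among normal livers was not measured on this design: each error rests on the 2 Fah p21 off livers (1 residual degree of freedom) and limma's pooling over probe sets, and the normal liver is assumed to vary alike. Pmaip1 read 462.5 and 323.9 in Fah p21 off livers, against 32.5 in the normal liver, and rose by 3.43 ± 0.37 (adjusted p = 0.00215). As on 430A, it reached the filter only in the Fah p21 off livers, since the normal liver lay below its level of 34.2. Bcl2l11 read 2068.3 and 1348.3 in Fah p21 off livers, against 516.7 in the normal liver, and rose by 1.69 ± 0.31 (adjusted p = 0.0158). Apaf1 on 1450223_at, its representative on 430A, read 95.3 and 93.7 in Fah p21 off livers, against 53.1 in the normal liver. That change of 0.79 ± 0.45 did not pass. On 1452870_at, its representative on this design, Apaf1 read 432 and 292.9 in Fah p21 off livers, against 94.2 in the normal liver, and rose by 1.88 ± 0.36. These were the 3 of 9 genes called, or 2 of 8 without Pmaip1, where 14% of 12921 genes were called and 9.11% rose. By probe set 8 of 29 rose, all 5 of Bcl2l11 among them, and 18 did not pass, where 11.5% of 26925 probe sets were called and 7.71% rose.

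Bid on 1417045_at read 364.6 and 383.3 in the 430 2.0 Fah p21 off livers, against 306.2 in the normal liver, a change of 0.28 ± 0.28 that did not pass. Bak1 read 228.4 and 224.7 in Fah p21 off livers, against 144.4 in the normal liver (0.64 ± 0.32, adjusted p = 0.269). Bbc3 read 464.2 and 353.2 in Fah p21 off livers, against 365.5 in the normal liver, so the groups overlapped. Of the pro-survival genes, Mcl1 on 1437527_x_at rose again, with 3275.4 and 2734 in Fah p21 off livers, against 1222.4 in the normal liver (1.29 ± 0.24, adjusted p = 0.0168), while 1448503_at read 4829.3 and 4776.4 in Fah p21 off livers, against 4762.5 in the normal liver. Bcl2l1 on 1420888_at read 486.4 and 697.3 in Fah p21 off livers, against 578.1 in the normal liver. The brightest of 5 Bcl2 probe sets, 1457687_at, read 166.2 and 148.9 in Fah p21 off livers, against 149.3 in the normal liver. The changes of these last 3 probe sets did not pass, with adjusted p from limma of 0.982 for Mcl1, 0.988 for Bcl2l1 and 0.921 for Bcl2. The balance was 1.54 and 1.09 in these Fah p21 off livers. Without limma's intensity trend, or with no filter on dim signals, only Pmaip1 was called.

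Other genes of the pathway were read by the same rules. Each list stands beside the share of all genes called, 29.4% in Fah p21 off livers and 36.2% in Fah off livers. Of all genes, 17.8% rose in Fah p21 off livers and 19.7% in Fah off livers. A list near these shares is no result about its genes. Of 8 tested genes among 15 others of the Bcl2 family, 2 fell in Fah p21 off livers, the BH3-only gene Bad (-1.29 ± 0.37) and the mitophagy receptor gene Bnip3 (-0.77 ± 0.22), and 1 rose in Fah off livers, Bcl2l13 (0.58 ± 0.17). Bad read 75 and 252.7 in Fah p21 off livers, against 339.6 to 384.1 in normal livers, so 1 liver was far below the other. Of 9 tested genes of caspases and execution, 2 rose in Fah p21 off livers (Casp8 and Casp2), and 2 rose (Casp8 and Dffa) and 1 fell (Parp1, -0.90 ± 0.13) in Fah off livers. Casp8, whose product cuts Bid, read 1014.8 and 871.1 in Fah p21 off livers and 1075.5, 1001.4 and 1170.3 in Fah off livers, against 542.7, 473, 617.5 and 590.2 in normal livers 1 to 4. It rose by 0.75 ± 0.15 in Fah p21 off livers (adjusted p = 0.00405) and by 0.95 ± 0.14 in Fah off livers (adjusted p = 0.000296).

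Of 9 mitochondrial death factors and channels, none passed in Fah p21 off livers and 1 rose in Fah off livers (Vdac2, 0.38 ± 0.12), which is the channel protein that holds Bak inactive. Death receptors and their adaptors gave 6 tested genes, of which none passed in Fah p21 off livers and 2 fell in Fah off livers, Tradd (-0.70 ± 0.21) and the caspase 8 inhibitor Cflar (-0.45 ± 0.16). Of 6 tested inhibitors of apoptosis proteins, 3 rose in Fah p21 off livers (Birc5, Naip2 and Birc6), and 1 rose (Birc6) and 1 fell (Birc2) in Fah off livers. Birc5, the gene of survivin, which is made in dividing cells, read 204.6 and 678.3 in Fah p21 off livers, 33.5, 18.3 and 7.6 in Fah off livers, and 11.4, 20.6, 27.7 and 11.8 in normal livers 1 to 4. Only the 2 Fah p21 off livers, unlike each other, reached the filter. Birc5 rose by 3.83 ± 0.55 in Fah p21 off livers (adjusted p = 0.000455), and its difference from Fah off livers of 3.79 ± 0.58 did not pass (adjusted p = 0.0623).

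Of 14 regulators of Bcl2 family genes and proteins, 3 rose and 2 fell in Fah p21 off livers, and 5 rose and 2 fell in Fah off livers. Over all genes, 29.4% were called in Fah p21 off livers and 36.2% in Fah off livers. The p53 inhibitor gene Mdm2, itself a p53 target, rose by 1.99 ± 0.31 in Fah p21 off livers and 1.81 ± 0.27 in Fah off livers. Ddit3, the gene of the stress factor CHOP, rose by 0.87 ± 0.27 in Fah p21 off livers and by 1.14 ± 0.24 in Fah off livers. Jun rose by 1.20 ± 0.20 in Fah p21 off livers and by 1.49 ± 0.17 in Fah off livers. Stat3 fell by 0.72 in Fah p21 off livers and fell by 0.47 in Fah off livers. Of 11 tested p53 targets in cell death, 6 rose in Fah p21 off livers and 7 in Fah off livers, and none fell. Phlda3, an inhibitor of Akt, had the largest change, at 2.74 ± 0.19 in Fah p21 off livers and 2.74 ± 0.17 in Fah off livers. The median of these targets was 1.08 in Fah p21 off livers and 0.91 in Fah off livers, whereas the medians of the other 6 lists lay between -0.21 and 0.44 in Fah p21 off livers and between -0.21 and 0.20 in Fah off livers. The lists were chosen with earlier results of these data known, so this contrast is a description only. In Fah p21 off against Fah off livers none of these 7 lists had a gene that passed.

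Markers of some cell types moved as well. All marker counts stand beside the 29.4% of all genes called in Fah p21 off livers and 36.2% in Fah off livers. Of 7 hepatocyte markers, 6 fell in Fah p21 off livers and all 7 in Fah off livers, and their summed signal was 58150 to 61640 in Fah p21 off livers and 59260 to 66810 in Fah off livers, against 94190 to 99730 in normal livers. All 5 tested cholangiocyte markers rose in both groups, with sums over 7 markers of 1240 to 1984 in Fah p21 off livers and 1309 to 1393 in Fah off livers, against 165.3 to 329.5 in normal livers. The defining cholangiocyte keratin genes Krt19 and Krt7 stayed below the filter in all groups on 430A. Epcam, Sox9 and Prom1 were below it in all normal livers, so these cholangiocyte markers were tested only through off livers in which they are high. Of 10 stellate cell markers 6 rose in Fah p21 off livers and 3 in Fah off livers, with sums of 8554 to 9374 in Fah p21 off livers and 5728 to 8227 in Fah off livers, against 4141 to 4976 in normal livers. Among them Col1a1, Pdgfrb and Lrat were below the filter in all normal livers and so were tested only through off livers. Of 11 macrophage markers 7 rose in Fah p21 off livers and 4 in Fah off livers, with sums of 13220 to 13490 in Fah p21 off livers and 10290 to 12210 in Fah off livers, against 6327 to 11010 in normal livers.

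Of 4 tested lymphocyte markers 1 rose in Fah p21 off livers and none passed in Fah off livers. Their sums over 10 markers were 833.2 to 941.9 in Fah p21 off livers, 539.3 to 780.3 in Fah off livers and 490.1 to 915.3 in normal livers, and Cd3d, Cd3g, Cd8a and Cd4 were below the filter in all 3 groups. Neutrophil markers passed in neither group (0 of 4), with sums of 620.7 to 626.3 in Fah p21 off livers and 466.1 to 538 in Fah off livers, against 492.1 to 1225 in normal livers. Erythroid markers fell in 2 of 4 in both, with sums of 556.9 to 776.1 in Fah p21 off livers and 415.8 to 636.6 in Fah off livers, against 1762 to 2689 in normal livers. Endothelial markers rose in 1 of 7 in both, with sums of 2822 to 3384 in Fah p21 off livers and 1989 to 3248 in Fah off livers, against 2337 to 3293 in normal livers. No marker of these lists was at 0. The part of these cell mixtures in the changes of the members was not tested.

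Across the 9 arrays of 430A the pro-death genes formed pairs in their levels, given as Pearson correlations of log2 signals that share arrays and groups. Bcl2l11 ran with Bid (0.97) and Bak1 with Apaf1 (0.94), while Pmaip1 was nearest to Apaf1 among members (0.88) and had 0.55 with Bcl2l11. Bbc3 reached at most 0.43 with any member. Among all 9194 other genes, the 2 most like Bcl2l11 were Rrm2b (0.99), a p53-induced subunit of ribonucleotide reductase, and the vault protein gene Mvp (0.98). For Pmaip1 they were the replication helicase gene Mcm3 (0.98) and the leukocyte antigen gene Cd48 (0.97), and for Bid Prpf4b and Peg3 (both 0.99). Apaf1 was nearest to Cyth3 (0.99) and Pdcd10 (0.98), and Bak1 to Wasf2 and Pdcd10 (both 0.98). The members that did not pass had looser matches, Bbc3 with Vsir (0.94) and Pabpc4 (0.93), Mcl1 with Mllt3 and Dyrk3 (both 0.91), Bcl2l1 with Smn1 (0.96) and Gabpb1 (0.95), and Bcl2 with Mrpl50 (0.91) and Abcf3 (0.90). As the best 2 of 9194 over 9 arrays, such correlations are thus high even for members that did not pass, and they show no shared regulation.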

How the data were processed

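Liver RNA was hybridised as biotinylated cRNA to 9 arrays of the 430A design and 3 of the 430 2.0 design. The authors deposited linear signal intensities, 1 per probe set and array; the submitters' processing notes name GCOS 1.4.0.036 and MAS5. These were used without further background correction or scaling. The 64 control probe sets of each design were dropped. Before log2 was taken, each table's 10th percentile of signal was added. A probe set was tested where 2 or more arrays had it at or above their own 40th percentile, which left 15307 on 430A and 26925 on 430 2.0. Each design was fitted once over all its arrays with limma 3.58.1 (R 4.3.3; lmFit, then eBayes with an intensity trend), and Benjamini-Hochberg adjustment ran over all probe sets tested. Tests stay within a design, since the designs were scaled separately. Groups follow the titles, in which the arrays are biological replicates; their number limits the precision.

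Symbols came from GEO's platform annotation (20380 probe sets of 430A and 34945 of 430 2.0 with 1 symbol, 691 and 932 with several, which named no gene, and 1555 and 9160 with none). By Entrez identifier, 20351 and 34741 matched the mouse gene table of GRCm38.p6. The genes named are all members, Fah and Cdkn1a, the 2 genes most correlated with each member, and from each list up to 4 passing genes per comparison, by size of change, or the 2 with the lowest p where fewer than 2 passed; only the markers below the filter were named outside this rule, after their values were seen. The members and lists were chosen with earlier results of these data known. On simulated data of 15307 probe sets, 48% of 2-fold and 88% of 4-fold changes were recovered with the arrays of Fah p21 off against normal, and 66% and 97% with those of Fah off against normal. The simulation changed a far smaller share of probe sets than the 28.4% and 35.5% called in these comparisons. Adjusted p depends on that share, so recovery in the livers may differ. Pairs of 430A arrays had at most 0.407% identical signals. Alternatives changed the filter, offset, scaling, variance model, probe set rule, control and the set of arrays. Plots were made in matplotlib 3.10.9 (Python 3.11.15).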

Additional observations from a re-analysis of the deposited data

Results flagged for a closer look

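In the normal group of 430A, 2 of the 24 member probe sets had 1 liver far from the other 3, by the share of the group's range that lies between that liver and its neighbour. On the Bcl2l11 probe set 1456006_at normal 4, the double knockout on NTBC, read 93.2 and the other normal livers 68.6 to 71.1 (share 0.885). On the Bcl2l1 probe set 1420888_at normal 3, the Fah knockout on NTBC, read 328.4 and the others 450.7 to 476.6 (share 0.849). About 1 in 20 groups shows such a gap by chance.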

How the results depend on the processing

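The calls of Bcl2l11 and Bid in Fah off against normal livers held under all 20 alternatives. Pmaip1 in Fah p21 off against normal livers was called under all 17 alternatives that tested it, but apart from the one with no filter these tested it through the Fah p21 off livers in which it is high, so they say little of its stability. Its change ran over 1.974 to 5.17. It was not tested without either of those livers. The counts of calls that follow are given without the share of all genes called under the same setting. With a filter at the 60th percentile 2 members were called for Fah p21 off and 2 for Fah off against normal, since Pmaip1, Bak1 and Apaf1 were then not tested. Set against the knockout of its own genotype on NTBC, Fah p21 off had 1 call. On 430 2.0, 1 was called with no filter and 1 without the intensity trend. Leaving out 1 liver gave 1 to 5 calls for Fah p21 off, 2 to 4 for Fah off and 0 between both off groups.

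The balance of Fah p21 off livers was 1.13 with no offset, 0.337 against the knockout of its own genotype and 0.379 without Pmaip1, an alternative chosen after seeing the data. Its difference from Fah off livers, 0.159, turned to -0.197 against own-genotype controls and to -0.19 without Pmaip1. On 430 2.0 the balance without Pmaip1 was 0.893. Leaving out 1 liver, also added later, gave 0.659 to 0.96 for Fah p21 off, 0.524 to 0.801 for Fah off and 0.0137 to 0.305 for their difference. The causes were not tested.

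Among members, signs turned only for changes that had not passed. For Fah p21 off against normal, Mcl1 was at -0.0491 with median scaling and Bbc3 at 0.141 with the replicate block. For Fah off against normal, Bbc3 was at -0.0214 with quantile normalization, and Bcl2 at -0.532 with the own-genotype control and -0.0423 with the replicate block. For Fah p21 off against Fah off, Bcl2l1 was at -0.0811 with median scaling and -0.358 with own-genotype controls, which put Bak1 at -0.0532. On 430 2.0, quantile normalization put Bbc3 at -0.00262, Bcl2l1 at -0.107 and Bcl2 at -0.171, and median scaling put Mcl1 at -0.127, Bcl2l1 at -0.128 and Bcl2 at -0.0627. Leaving out 1 liver spread Bbc3 over -0.15 to 0.152 for Fah p21 off, over -0.0677 to 0.234 for Fah off and over -0.187 to 0.0234 for their difference. It spread Bcl2 over -0.0423 to 0.404 for Fah off, and, for the difference, Mcl1 over -0.195 to 0.0289 and Bcl2l1 over -0.108 to 0.283.

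As deposited, the median change of all genes for Fah p21 off against normal was 0.09 and 60.7% of calls were higher; median scaling gave -0.14 and 37.2%, and quantile normalization -0.03 and 50.2%. Bak1 was then at 0.58 and 0.59 and did not pass. Replicate numbers did not pair the livers: same-numbered livers of different groups had correlations of -0.28 to 0.07 in their deviations. With the replicate block 5 members were called for Fah p21 off and 4 for Fah off against normal, with Bak1 in place of Pmaip1 in Fah off livers, and 0 between both off groups.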
